A study of Homo sapiens with 6 samples.

Results

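The genes that rose and fell with a statin were read from RNA arrays of Huh7, an established line of human hepatoma cells. The comparison took every array labelled statin (2) against every array labelled control (2), which is 4 of the 6 arrays of the study, and covered all 54613 probe sets of the array other than its control probe sets, or 21299 named genes when each gene is read at its brightest probe set. All cells were grown for 24 h in medium with 10% FBS. Control cells received vehicle, statin cells 5 µM of a statin that the labels do not name further, given to deplete cholesterol. The other 2 arrays, from cells given 120 µg/ml of native low-density lipoprotein (nLDL), entered through the estimate of the spread and are given beside some genes. Cultures are described as biological replicates, and the small groups limit how precise any value can be. Values are log2 values per probe set, and differences are statin minus control on that scale with the SE of the fit. Cholesterol was not measured on these arrays, so a lack of sterol cannot be told apart from any other action of the drug. In RNA from whole cultures, fewer cells of a state and less RNA per cell cannot be told apart either.

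Statins block the mevalonate pathway, which makes both cholesterol and the isoprenoid lipids that anchor small GTPases such as RHOA, RAC1 and the Ras and Rab families in membranes. RHOA and RAC1 control the assembly of actin filaments. Actin in turn controls a pair of transcriptional switches, the coactivators YAP and TAZ, which work with TEAD factors, and the coactivators of serum response factor (SRF). Both switches are known for turning on genes of growth, matrix and the cytoskeleton, and YAP is a growth regulator of the liver.

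The liver identity of the cells held on every array. All 10 hepatocyte markers lay between 11.03 and 14.27 on the control arrays and between 11.07 and 14.28 on the statin arrays, none passed the test, and albumin (ALB) differed by -0.01. None of 6 fibroblast, 6 endothelial, 6 immune and 4 muscle markers passed, and 1, 2, 2 and 3 of them lay below 4.23, the level that bounds the dimmest 40% of probe sets. Among 4 adipocyte markers, CIDEC, a lipid droplet protein, rose by 0.81 (SE 0.09), while ADIPOQ and LEP lay below that level. Mean levels of the adipocyte list were 4.58 and 4.63 on the control arrays and 5.01 and 4.89 on the statin arrays. On the first principal component, with 45.3% of the variance, the statin arrays scored 35.8 and 24.2 and the other 4 between -17.3 and -12.5.

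At a limma adjusted p under 0.05, 317 genes rose with statin (1.49% of those measured) and 482 fell (2.26%), while over all probe sets 522 rose and 907 fell, together 2.62%. By the brightest probe set, 27 genes rose and 59 fell at least 2-fold. The median difference was 0.02 over all genes, 0.59 over those that rose and -0.59 over those that fell. Overlap between the statin and control arrays was not counted over all called genes. Calls were rare among dim genes. Among the 5325 dimmest genes 7 rose and 5 fell, and among the 5325 brightest 93 rose and 206 fell. Of 477 called genes with several probe sets, 356 had all of them on the same side and 201 had a second one that passed in the same direction. A call named below may therefore rest on 1 probe set, also where this is not said.

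The number of calls depended on each array. When control array 1 or control array 2 was dropped, 45 probe sets were called, and dropping statin array 1 or 2 left 103 or 217. Fits that lacked an nLDL array called 607. Every one of these fits has fewer residual degrees of freedom, and leaving out an nLDL array changes no statin difference. Of the 157 calls on genes that the naming rule took, 24 held in all 6 such fits and 36 in none. Over all genes, 8 that rose and 19 that fell passed in every one. S100P, GDF15, MYO1A, KLF2, RHOB, NQO1, TBX10 and GPX2 are those that rose. GABRB1, CRYBG1, CCN2, TNFRSF19, TGFB2, FAM3B, AMOTL2, OLFML3, CYP26A1, FHL2, TFPI2, FSTL1, JAG1, BICC1, CHML, AJUBA and DKK1 are among those that fell.

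The 20 largest rises ran from 1.06 to 1.73, with SE from 0.08 to 0.19 and limma adjusted p from 0.00250 to 0.0279. IGFBP1 is a secreted binding protein of insulin-like growth factors that insulin represses in liver. It lay at 4.60 and 4.87 on the control arrays and at 6.42 and 6.52 on the statin arrays, a rise of 1.73 (SE 0.17). Its other probe set differed by 0.12 and did not pass. GDF15, a stress-induced cytokine, lay at 8.14 and 8.24 with vehicle and at 9.57 and 9.72 with statin, and passed at 1 of its 3 probe sets. S100P, a calcium-binding protein, rose by 1.43 from 11.19 and 11.22 to 12.68 and 12.58. No control array reached the statin arrays in any of the 3, which the choice of the largest changes required. The other large rises included an actin motor of the microvillus, MYO1A (1.30), enzymes and transporters of epithelial cells such as HAL (1.27), which breaks down histidine, the serine protease HPN (1.22), the bile acid transporter subunit SLC51A (1.19), the mucin MUC3B (1.16) and the lipase LIPG (1.13). TBX10, a T-box factor, rose by 1.19 and C8orf58 by 1.09.

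The 20 largest falls ran from 1.33 to 2.75 in size, with SE from 0.08 to 0.19 and limma adjusted p from 0.00186 to 0.0142. GABRB1, a subunit of the GABA-A receptor, was at 7.33 and 7.35 on the control arrays and at 4.42 and 4.74 on the statin arrays, where it approached the dimmest 40% of probe sets. It was the single member to pass among 15 measured subunits of that receptor, which had a median difference of 0.03. CRYBG1, an actin-associated protein, went from 7.04 and 7.03 to 4.46 and 4.88. For both genes the gap between the groups was larger than 2 log2 units. NPPB, which encodes a natriuretic peptide, lay at 7.32 and 7.09 with vehicle and at 5.70 and 5.24 with statin, and at 7.01 and 6.58 on the nLDL arrays. Falls were also seen for secreted and matrix proteins, among them FAM3B (-1.57), OLFML3 (-1.52), TFPI2 (-1.40), the collagen-modifying enzyme P3H2 (-1.36) and osteopontin, SPP1 (-1.35), and for the axon guidance receptor ROBO2 (-1.51), the cell cycle regulator RGCC (-1.33) and the RNA gene LOC105372526 (-1.43). CYP26A1, which degrades retinoic acid, fell by 1.44 (SE 0.09), from 7.57 and 7.69 to 6.24 and 6.15. On the nLDL arrays it lay above the controls, at 8.36 and 8.51. TGFB2, P3H2, RGCC and TNFRSF19 came down to levels near or below 4.23 with statin, so their falls are read near background. Each also had a probe set that differed in the other direction, by 0.27, 0.48, 0.21 and 0.09, and did not pass.

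**Figure D1:**
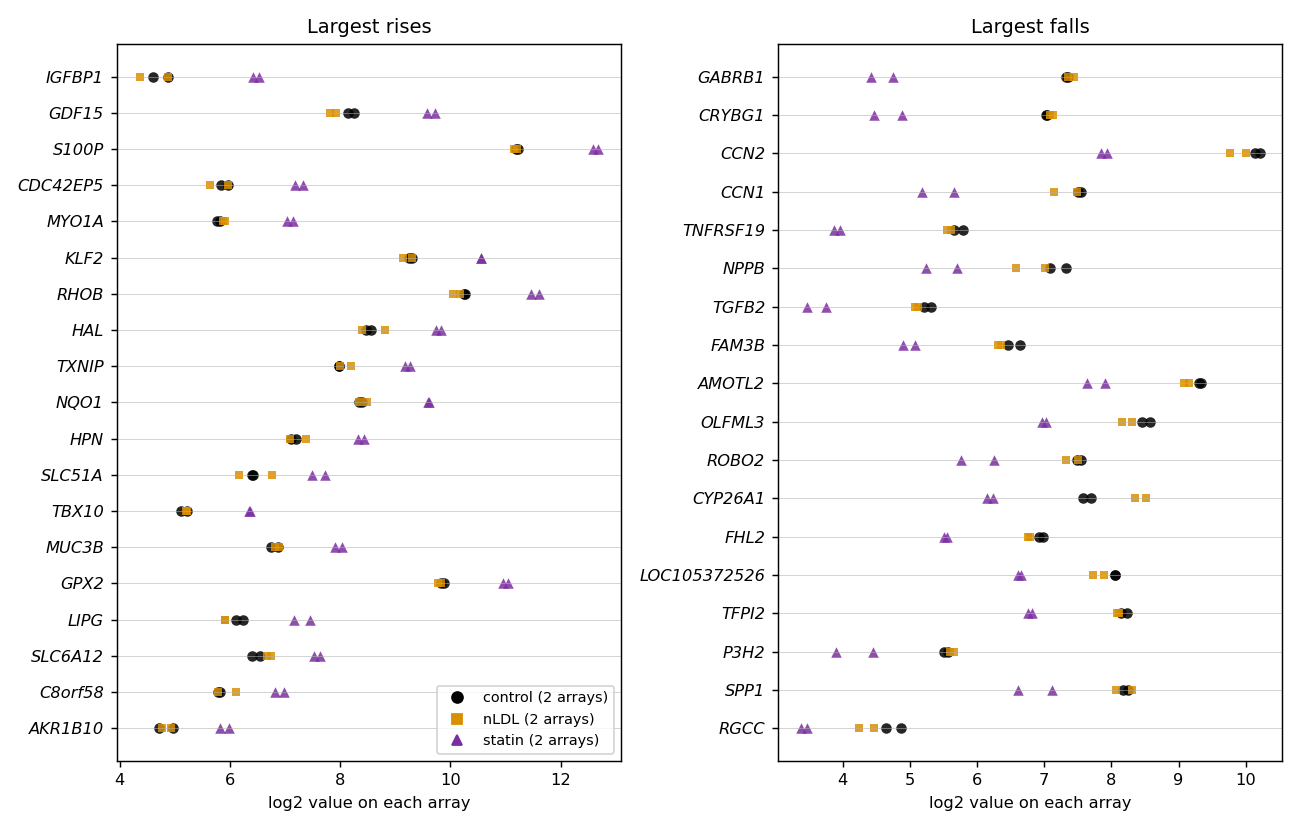
The log2 value on each of the 6 arrays (x axis) is shown for 37 of the 40 genes with the largest rises (left) and falls (right), with circles for control, squares for nLDL and triangles for statin. In every row the triangles lie apart from the circles, which the choice of these genes required. The means differ by 1.06 or more for the rises and by 1.33 or more for the falls.

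Across 48 gene lists that hold 1061 measured genes, 60 genes rose and 133 fell. Over all measured genes 1.49% rose and 2.26% fell, and a single call on a list is no result about that list. The lists and members were chosen with earlier results of these data known. Shares on a list beside those of all genes, here and below, are therefore descriptions and no test of the list. The share of members that fell was highest on the lists of DNA replication, mitosis, DNA repair and the G1/S transition, followed by targets of YAP and TAZ, while the share of members that rose was highest among Kruppel-like factors, insulin-repressed FOXO targets and immediate early genes. A further 257 genes that rose and 349 that fell were on no list.

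**Figure D2:**
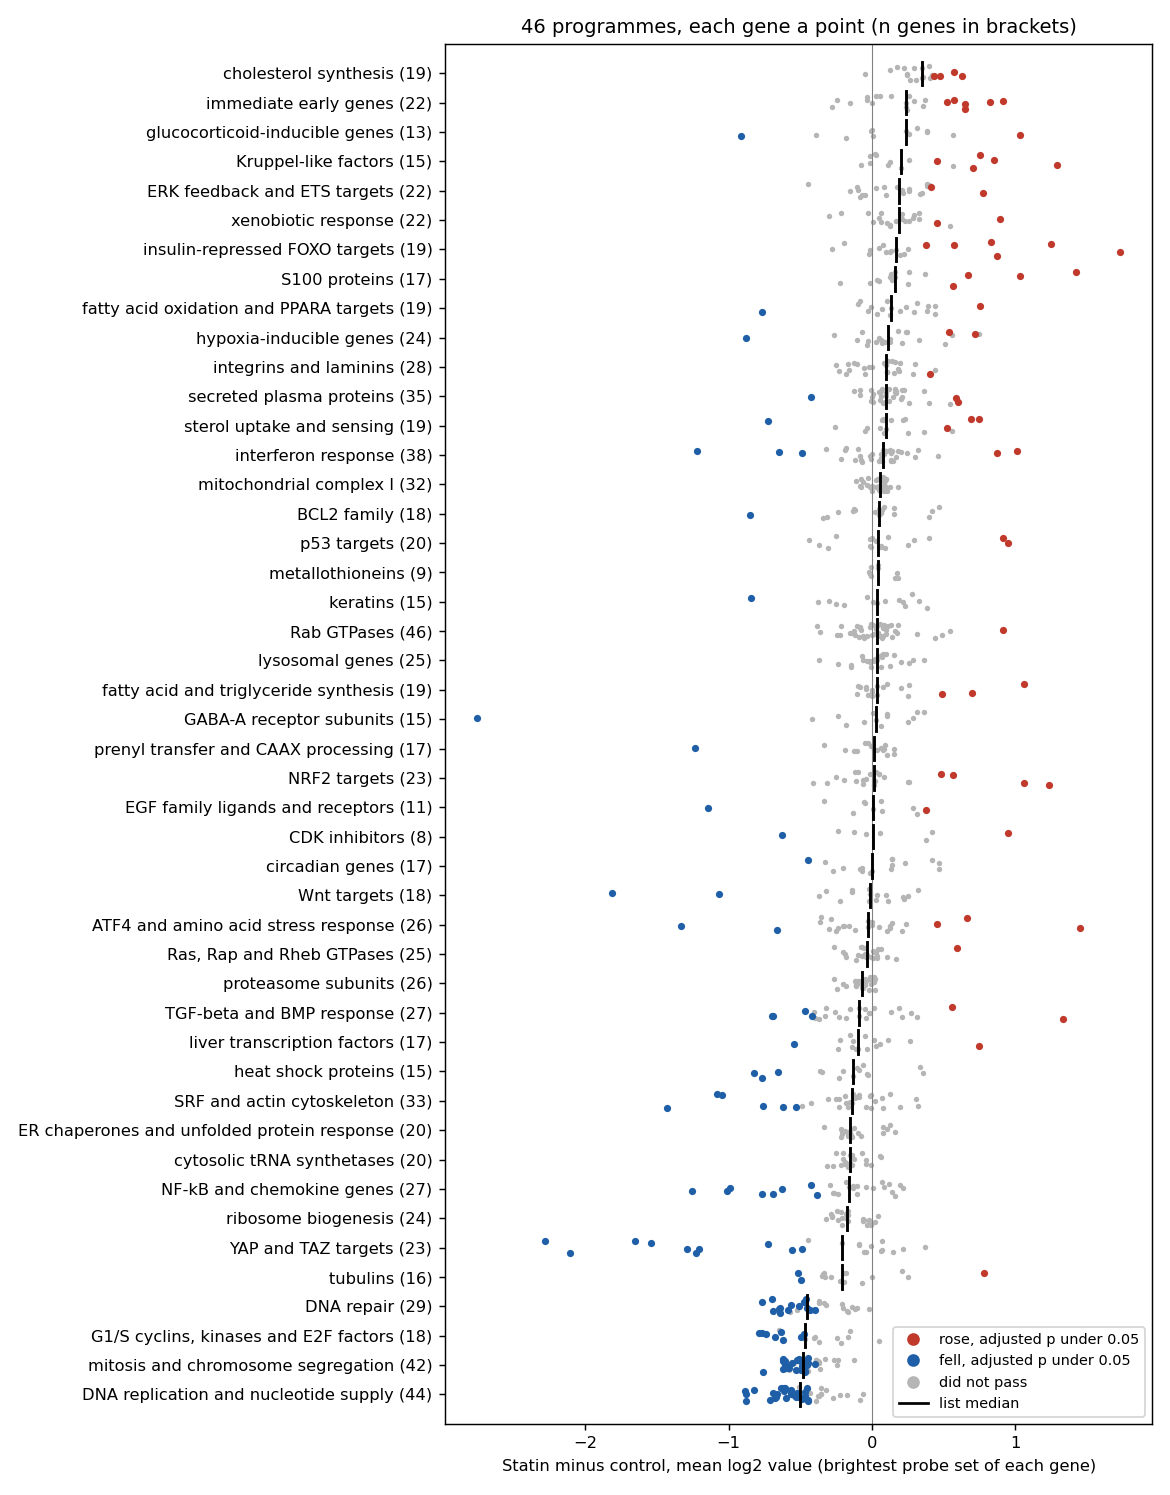
Each point is the difference of 1 gene between the means of the 2 statin and the 2 control arrays (x axis, log2), for 46 of the lists ordered by their median (black bar), with red for genes that rose, blue for genes that fell and grey for genes that did not pass. Medians run from -0.50 for DNA replication to 0.35 for cholesterol synthesis, beside 0.02 over all genes.

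Targets of YAP and TAZ fell. Of 23 measured, 10 fell, none rose and 13 missed the threshold, which is 43.5% lower beside 2.26% of all genes, with a list median of -0.21. As the list was chosen with earlier results of these data known, the 2 shares describe it and test nothing. CCN2, a matricellular growth factor and a standard readout of YAP activity, was at 10.14 and 10.21 on the control arrays, 10.00 and 9.77 on the nLDL arrays and 7.85 and 7.93 on the statin arrays, a fall of 2.28 (SE 0.10). Its relative CCN1 went from 7.51 and 7.54 to 5.18 and 5.66. On both genes the statin arrays were the lowest of all 6. AMOTL2 and AJUBA, which bind YAP or its inhibitory kinase at cell junctions, fell by 1.54 (9.33 and 9.30 to 7.63 and 7.91) and by 1.23 (11.46 and 11.42 to 10.20 and 10.23). LATS2, one of the kinases that inhibit YAP and itself a target, went from 10.17 and 10.09 to 9.40 and 9.41. The growth factor TGFB2 fell by 1.65, the membrane protein CRIM1 by 1.29, the muscle and heart ankyrin protein ANKRD1 by 1.21, the binding protein IGFBP3 by 0.56 and the phosphatase PTPN14 by 0.49. ANKRD1 was dim, at 4.49 and 4.31 with vehicle and 3.31 and 3.08 with statin. The list was not uniform. AXL (0.14), FJX1 (0.22) and NT5E (0.37) lay above the controls without passing, as did AMOTL1 (0.06) and DOCK5 (0.07). The number that fell was 5 and 4 in fits that lacked control array 1 or 2, 7 in those that lacked a statin array and 9 in those that lacked an nLDL array.

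TEAD factors bind the letters GGAATG. In the 200 bases before the start site, on either strand, that word stood in 7.99% of 15924 measured genes with a promoter in RefSeq (GRCh38.p14) and in 5 of 17 YAP and TAZ targets, 4 of which fell (CCN2, ANKRD1, PTPN14 and TGFB2). The promoter of CCN2 (chr6:131951373-131951572, minus strand) is shown because the gene had the largest fall of the list and 3 matches, in capitals, which begin 169, 104 and 95 bases before the start site. A match is a description of the sequence and not a measured site.
CCN2: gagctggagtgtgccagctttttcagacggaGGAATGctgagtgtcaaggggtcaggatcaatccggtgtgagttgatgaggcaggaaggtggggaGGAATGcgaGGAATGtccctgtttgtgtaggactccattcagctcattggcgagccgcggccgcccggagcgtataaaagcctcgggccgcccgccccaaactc

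Genes of the actin cytoskeleton and of SRF fell in part. Of 33 measured, 6 fell (18.2%, beside 2.26% of all genes), none rose and 27 missed the threshold, and the list median was -0.14. Few of the falls were among its brightest members. Among the 5325 brightest genes, 1 of 19 members fell (5.26%, beside 3.87% of all genes there). In the next group by brightness (5324 genes), 3 of 7 fell (42.9%, beside 3.94%). In the group after that (5325 genes), 2 of 6 fell (33.3%, beside 1.15%), and the 1 member among the 5325 dimmest did not. FHL2, a LIM protein and SRF target, lay at 6.99 and 6.93 on the control arrays and at 5.55 and 5.50 on the statin arrays, a fall of 1.43 (SE 0.08). NEXN, which binds actin filaments, went from 5.70 and 5.50 to 4.52 and 4.51, and the myosin light chain MYL9 from 5.84 and 6.01 to 4.95 and 4.81. The statin arrays of these 3 genes were below all other arrays. A second probe set of MYL9 differed in the other direction, by 0.56, and did not pass. Filamin A (FLNA), an actin cross-linker, fell by 0.76, calponin 2 (CNN2) by 0.62 and tropomyosin 4 (TPM4) by 0.53. Tropomyosin 2 (TPM2) and vinculin (VCL) differed by -0.48 and -0.42 and did not pass, with limma adjusted p of 0.0643 and 0.0677. SRF itself differed by 0.08, and TAGLN (0.19) and TGFB1I1 (0.32) lay above the controls. The count that fell was 1 without control array 1 or statin array 1, 2 without control array 2 or statin array 2, and 5 without either nLDL array.

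The control probe sets for ACTB, which read cytoplasmic beta actin at 3 places along its transcript, moved on the same arrays. The 3′ probe set exceeded the 5′ one by 1.63 and 1.64 with vehicle, 1.62 and 1.54 with nLDL and 2.13 and 1.92 with statin, and the 5′ probe set differed by -0.62 and the 3′ one by -0.23. The same gap for GAPDH, a glycolytic enzyme, lay between 0.02 and 0.10 on all 6 arrays. The part of this gap in the falls of cytoskeletal genes was not tested.

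**Figure D3:**
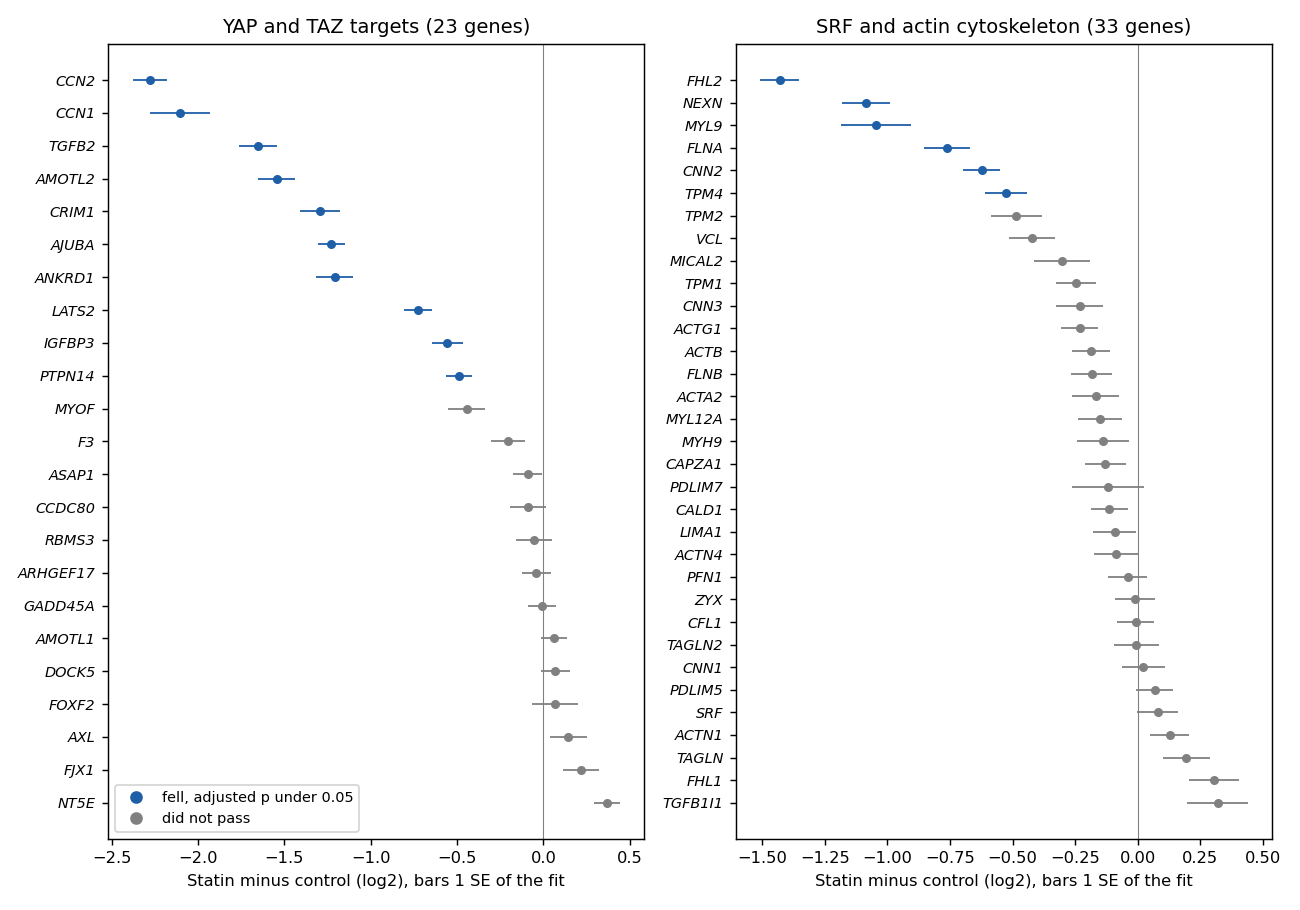
Differences between statin and control (x axis, log2, with bars of 1 SE of the fit) are drawn for the 23 measured YAP and TAZ targets and the 33 genes of SRF and the actin cytoskeleton, blue where the gene fell at an adjusted p under 0.05. A set of 10 genes on the left and 6 on the right is blue, from CCN2 (-2.28) and FHL2 (-1.43) downwards, and no gene passed on the side of zero above the controls.

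SRF binds the CArG box, a run of 6 A or T bases between CC and GG. It stood in the 200 bases before the start site of 0.986% of all measured genes and of 6 of 29 genes of this list, among them 4 of the 5 genes that fell and have a promoter in the table (FHL2, FLNA, TPM4 and CNN2). The promoters of FHL2 (chr2:105438514-105438713, minus strand), FLNA (chrX:154374635-154374834, minus strand) and CNN2 (chr19:1026408-1026607, plus strand), all of GRCh38.p14, are printed with the box in capitals, which begins 101, 94 and 89 bases before the start site.
FHL2: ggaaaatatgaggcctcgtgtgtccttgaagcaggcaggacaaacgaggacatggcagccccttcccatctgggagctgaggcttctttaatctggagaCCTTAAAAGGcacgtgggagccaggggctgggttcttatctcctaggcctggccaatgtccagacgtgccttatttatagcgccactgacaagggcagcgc
FLNA: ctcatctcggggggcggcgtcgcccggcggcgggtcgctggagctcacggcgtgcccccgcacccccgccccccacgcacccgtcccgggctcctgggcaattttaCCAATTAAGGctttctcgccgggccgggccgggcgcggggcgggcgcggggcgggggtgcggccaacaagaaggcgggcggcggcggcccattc
CNN2: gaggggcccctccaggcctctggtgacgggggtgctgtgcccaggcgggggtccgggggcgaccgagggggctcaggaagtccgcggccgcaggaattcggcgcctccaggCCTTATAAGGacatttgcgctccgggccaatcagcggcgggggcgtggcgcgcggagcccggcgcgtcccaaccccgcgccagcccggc

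Single genes passed among the small GTPases that the mevalonate pathway supplies with lipid anchors. RHOB, a short-lived GTPase, lay at 10.25 and 10.27 with vehicle and at 11.46 and 11.60 with statin, a rise of 1.27 (SE 0.09) that held in all 6 fits without an array. Its relatives RHOA and RHOC differed by 0.23 and 0.35, RAC1 by 0.05 and CDC42 by 0.13, and none of these passed. Among 25 Ras, Rap and Rheb genes RASD1 rose by 0.59, and among 46 Rab genes RAB40B rose by 0.91. Beside the 1.49% of all genes that rose, 1 gene in each is no result about these families. CDC42EP5, which binds Cdc42, rose by 1.36 from 5.96 and 5.84 to 7.19 and 7.34. The formin DIAPH3 (-0.56), the cytokinesis scaffold ANLN (-0.54) and the kinase LIMK2 (-0.47) fell. ANLN and LIMK2 passed in none of the fits without an array.

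Of 17 genes for prenyl transfer and the processing of prenylated proteins, 1 fell (beside 2.26% of all genes) and none rose. That gene was CHML, the Rab escort protein that presents Rab proteins for prenylation. It lay at 9.85 and 9.93 on the control arrays, 9.85 and 9.81 on the nLDL arrays and 8.58 and 8.74 on the statin arrays, a fall of 1.23 (SE 0.09). The other Rab escort protein gene, CHM, was dim and differed by less than its SE (0.13). FNTA and PGGT1B, subunits of the transferases, differed by 0.11 and -0.13. CHML lies inside the span of OPN3 (GRCh38.p14, chr1:241593124-241640369), and OPN3, an opsin, also fell, by 0.99 (SE 0.08), from 11.40 and 11.41 to 10.40 and 10.44. Whether probe sets of the overlapping genes read the same RNA was not tested.

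Genes of DNA replication fell as a group. Of 44 measured, 28 fell (63.6%, beside 2.26% of all genes), none rose and 16 did not pass, and the mean of the statin arrays lay below that of the controls for 44 of 44. Differences ran from -0.89 to -0.06. Their median was -0.50, a fall of well under 2-fold, beside 0.02 over all genes. CDC6, which loads the replicative helicase, lay at 8.99 and 9.07 on the control arrays and at 8.06 and 8.23 on the statin arrays. UHRF1, which keeps DNA methylated after replication, went from 10.35 and 10.41 to 9.43 and 9.56, and TK1, a kinase of thymidine salvage, from 9.26 and 9.25 to 8.34 and 8.40. None of the 3 overlapped between the groups. Subunits of the helicase and its loaders fell with them, MCM10 by 0.82, MCM4 by 0.71, MCM5 by 0.63 and MCM2 by 0.56, as did DNA2 (-0.69), a nuclease, and RRM1 (-0.56), a subunit of ribonucleotide reductase. PCNA, the sliding clamp, differed by -0.38 with an adjusted p of 0.0621 and did not pass, and POLD2 (-0.09) and RFC1 (-0.06) were the closest to the controls. All 44 genes were brighter than the median gene. Of genes in the 2 bright groups that hold them (5324 and 5325 genes), 3.94% and 3.87% fell. The count that fell was 0 without control array 1, control array 2 or statin array 1, 5 without statin array 2 and 15 without either nLDL array.

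E2F factors, which turn on S phase genes, bind TTTCGCGC and TTTGGCGC. One or the other, on either strand, stood in the 200 bases before the start site of 1.09% of all measured genes, of 5 of 38 replication genes and of 4 of 13 genes of the G1/S transition. Among genes that fell and have a promoter in the table, 3 of 24 replication genes and 2 of 5 G1/S genes had a match. Promoters are printed for the genes of these lists with the largest falls among those with a match, CDC25A (chr3:48188418-48188617, minus strand), POLA2 (chr11:65261762-65261961, plus strand) and MCM6 (chr2:135876444-135876643, minus strand), with matches in capitals. MCM6 has 4 matches, which overlap in pairs.
CDC25A: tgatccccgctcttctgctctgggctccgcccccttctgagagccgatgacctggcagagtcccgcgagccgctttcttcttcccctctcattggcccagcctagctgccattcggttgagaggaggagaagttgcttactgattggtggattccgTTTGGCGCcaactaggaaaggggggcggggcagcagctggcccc
POLA2: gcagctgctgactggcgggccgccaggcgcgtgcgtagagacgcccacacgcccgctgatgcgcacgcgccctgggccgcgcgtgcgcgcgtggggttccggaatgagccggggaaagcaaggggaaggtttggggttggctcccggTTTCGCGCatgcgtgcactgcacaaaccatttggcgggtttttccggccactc
MCM6: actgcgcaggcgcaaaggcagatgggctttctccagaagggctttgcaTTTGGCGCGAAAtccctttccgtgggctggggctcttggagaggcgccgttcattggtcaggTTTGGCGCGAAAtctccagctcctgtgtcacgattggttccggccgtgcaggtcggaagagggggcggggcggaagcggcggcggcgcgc

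Mitosis genes moved the same way. Of 42 measured, 27 fell (64.3%, beside 2.26% of all genes), none rose and 15 did not pass. The mean was lower for 42 of 42, and the median was -0.48, beside 0.02 over all genes. KIF23, a motor of the midbody, lay at 8.87 and 9.01 with vehicle and at 8.18 and 8.19 with statin, a fall of 0.76 (SE 0.09). The spindle kinase BUB1 went from 9.54 and 9.60 to 8.94 and 8.96, and the spindle motor KIF11 from 9.17 and 9.13 to 8.47 and 8.62. DLGAP5, a spindle protein, fell by 0.62, the condensin subunit NCAPH by 0.62, ECT2, which acts at the cleavage furrow, by 0.61 and the mitotic kinase CDK1 by 0.51. For the proliferation marker MKI67 the difference was -0.45 with an adjusted p of 0.0548, and INCENP (-0.13) was the closest to the controls. The count was 0 without either control array or either statin array, and 9 without either nLDL array.

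Late cell cycle genes often carry the letters TTTGAA, the cell cycle genes homology region, near the start site. On either strand it stood in the 200 bases before the start site of 7.81% of all measured genes and of 20 of 36 mitosis genes, 12 of them among the 23 that fell and have a promoter in the table. CCAAT, which the factor NF-Y binds, stood in 30.1% of all measured genes and in 26 of 36 mitosis genes. The promoters of KIF23 (chr15:69414149-69414348, plus strand) and DLGAP5 (chr14:55191586-55191785, minus strand), the largest falls of the list, are printed with TTTGAA or its reverse in capitals, beginning 55 bases before the start site in KIF23 and 138 and 109 bases before it in DLGAP5.
KIF23: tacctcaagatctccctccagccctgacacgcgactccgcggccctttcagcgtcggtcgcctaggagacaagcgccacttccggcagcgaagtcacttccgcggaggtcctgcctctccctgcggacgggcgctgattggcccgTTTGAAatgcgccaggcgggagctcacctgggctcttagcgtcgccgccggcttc
DLGAP5: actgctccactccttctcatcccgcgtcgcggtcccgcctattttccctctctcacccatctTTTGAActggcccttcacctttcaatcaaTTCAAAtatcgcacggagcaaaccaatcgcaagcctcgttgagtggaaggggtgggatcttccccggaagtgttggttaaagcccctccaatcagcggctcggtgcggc

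Of 18 cyclins, kinases and E2F factors of the G1/S transition, 8 fell (44.4%, beside 2.26% of all genes) and none rose, with a median of -0.47. SKP2, which marks the inhibitor p27 for destruction, lay at 12.26 and 12.26 on the control arrays and at 11.48 and 11.55 on the statin arrays. Cyclin E2 (CCNE2) fell by 0.79, E2F8 by 0.77, the phosphatase CDC25A by 0.68, E2F7 by 0.63 and cyclin A2 (CCNA2) by 0.62. Cyclin D1 (CCND1) differed by -0.15 and cyclin D2 (CCND2) by 0.05, and neither passed. Among 8 CDK inhibitors, CDKN1A (p21) rose by 0.95 (SE 0.10) from 7.83 and 7.81 to 8.81 and 8.73, with nLDL at 7.63 and 7.87, while CDKN2C (p18) fell by 0.63 (SE 0.11). CDKN1B, the p27 gene, differed by -0.04. The 8 falls became 0 without control array 1, control array 2 or statin array 1, 2 without statin array 2 and 4 without either nLDL array. CDKN1A lost its call without any control or statin array.

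Of 29 DNA repair genes, 14 fell (48.3%, beside 2.26% of all genes) and none rose. The mean was lower for 29 of 29, and the median was -0.45, beside 0.02 over all genes. The largest falls were those of the nuclease EXO1 (-0.77), the recombination factor RAD51AP1 (-0.70), the checkpoint kinase CHEK1 (-0.69) and FANCI (-0.64), a protein of crosslink repair. EXO1 went from 8.38 and 8.40 to 7.56 and 7.68. The damage kinases ATM and ATR differed by -0.02 and -0.12. The number that fell was 0 without control array 1, control array 2 or statin array 1, 1 without statin array 2 and 6 without either nLDL array. Of 20 p53 targets, CDKN1A and the antiproliferative gene BTG2 rose, beside 1.49% of all genes, and none fell. Of 18 BCL2 family genes only the proapoptotic BIK fell, by 0.85 (SE 0.12), beside 2.26% of all genes.

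**Figure D4:**
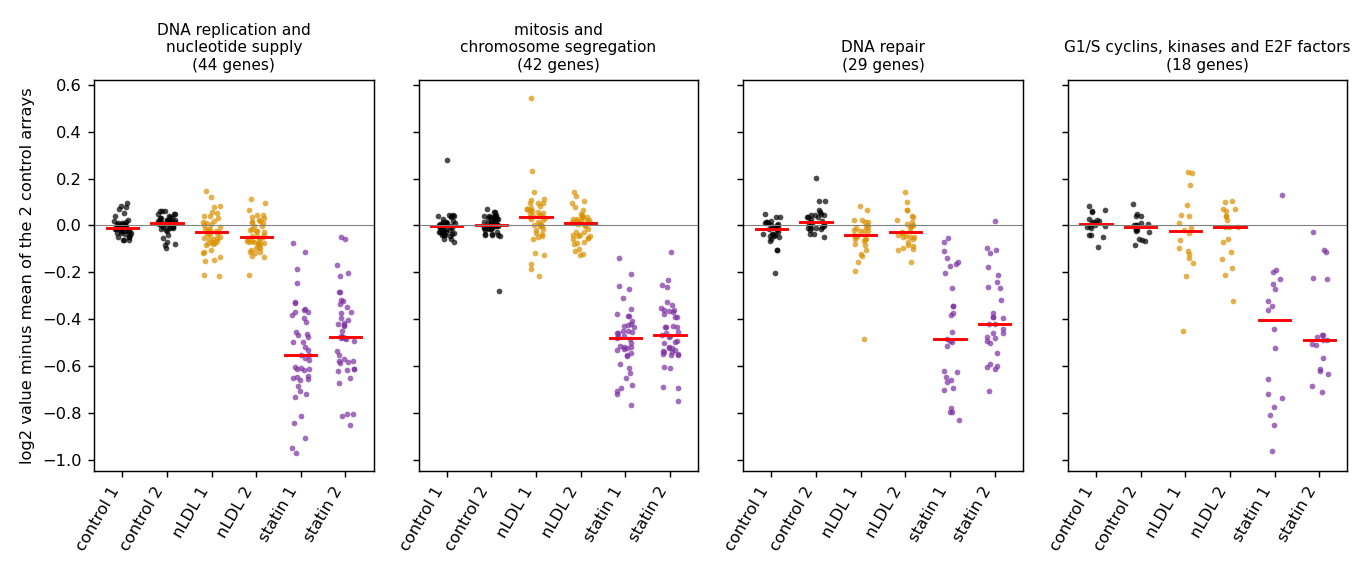
For 4 cell cycle lists, each point is the log2 value of 1 gene on 1 array minus its mean on the 2 control arrays (y axis), with a red bar at the median of the list. Medians of the replication list were -0.55 and -0.48 on the statin arrays and -0.03 and -0.05 on the nLDL arrays, and those of the mitosis list -0.48 and -0.47 beside 0.03 and 0.01.

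Immediate early genes, the first wave of transcription after growth and stress signals, rose in part. Of 22 measured, 6 rose (27.3%, beside 1.49% of all genes) and none fell, and the median was 0.24. BTG2 lay at 7.23 and 7.29 with vehicle and at 8.23 and 8.12 with statin, a rise of 0.92 (SE 0.08). JUN, a subunit of the factor AP-1, went from 10.75 and 10.72 to 11.53 and 11.58. The nuclear receptor NR4A2 rose by 0.65, ZFP36, which destabilizes mRNAs, by 0.65 and the zinc finger factor EGR1 by 0.52. FOS (0.26) was dim, and ATF3 (0.24) and IER3 (-0.28) did not pass. The count was 0 without control array 1, control array 2 or statin array 1, 2 without statin array 2 and 5 without either nLDL array. Of 22 genes of ERK feedback and ETS targets, the phosphatases DUSP4 (0.78) and DUSP6 (0.41) rose, beside 1.49% of all genes.

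Kruppel-like factors, zinc finger regulators of differentiation and vessel function, had 5 of 15 members that rose and none that fell, 33.3% beside 1.49% of all genes, and a median of 0.21. KLF2, known as a statin-responsive gene in endothelial cells, lay at 9.30 and 9.24 on the control arrays, 9.14 and 9.30 on the nLDL arrays and 10.56 and 10.56 on the statin arrays, a rise of 1.29 (SE 0.09). KLF11 rose by 0.85, KLF4 by 0.76, KLF6 by 0.70 and KLF5 by 0.45, and KLF10 differed by 0.03. Without an array of control or statin the count was 1, and without an nLDL array it was 4. KLF2 is that one gene.

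Signals between cells moved in several directions. In the epidermal growth factor family, the ligand NRG1 fell by 1.14 (SE 0.15) from 6.34 and 5.99 to 5.04 and 5.01, and the receptor ERBB3 rose by 0.38 (SE 0.07). NRG1 passed at 1 of its 6 probe sets, which ran from -1.14 to 0.30. ERBB3 passed at 1 of its 5 probe sets, which ran from -0.21 to 0.38. The remaining 9 of the 11 family members did not pass, and over all genes 1.49% rose and 2.26% fell. Of 27 genes of the TGF-beta and BMP response, 2 rose and 4 fell, beside 1.49% and 2.26% of all genes. The activin antagonist FST (0.56) was among those that rose. Those that fell were the matrix protein THBS1 (-0.70), the activin subunit INHBE (-0.69), the decoy receptor BAMBI (-0.47) and the secreted TGFBI (-0.42). The falls numbered 0 without any control or statin array and 1 without either nLDL array. Of 18 Wnt targets, TNFRSF19 fell by 1.81 and the Wnt antagonist DKK1 by 1.07, beside 2.26% of all genes that fell. TNFRSF19 passed at 1 of its 3 probe sets, and another differed in the other direction, by 0.09. DKK1 lay at 12.12 and 12.13 with vehicle and at 11.04 and 11.07 with statin, and both calls held in each fit without an array. Among 28 integrins and laminins, LAMA4 rose by 0.41 and the rest did not pass. Beside the 1.49% of all genes that rose, this 1 gene is no result about them.

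NF-kB and chemokine genes had 8 of 27 members that fell (29.6%, beside 2.26% of all genes) and none that rose, with a median of -0.16. The falls were led by chemokines that attract neutrophils. CXCL1 lay at 10.87 and 10.88 on the control arrays and at 9.52 and 9.70 on the statin arrays, a fall of 1.26 (SE 0.10). CXCL8 went from 10.21 and 10.20 to 9.22 and 9.17, and CXCL6 from 10.98 and 11.05 to 10.00 and 10.05. In each of them both statin arrays were lower than all other arrays. CXCL3 fell by 0.77, CX3CL1, the membrane-bound chemokine, by 0.69, CXCL2 by 0.63, CXCL10 by 0.43 and the feedback inhibitor TNFAIP3 by 0.38. NFKBIA, the inhibitor that NF-kB induces, differed by -0.18, and CCL2 and CCL20 by -0.04 and 0.12, none of them passing. The count was 0 without either control array, 2 without statin array 1, 4 without statin array 2 and 5 without either nLDL array. Of 38 interferon response genes, 2 rose and 3 fell, beside 1.49% and 2.26% of all genes. The antiviral enzyme OAS1 (1.01) and the nuclease ISG20 (0.88) rose, and GBP1, a guanylate-binding GTPase, fell by 1.22 from 7.04 and 7.01 to 5.70 and 5.92, as did IFIT1 by 0.65. Both counts were 0 without either control array or statin array 1 and 1 without statin array 2, and without either nLDL array they were 2 and 1.

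S100 proteins had 4 of 17 members that rose (23.5%, beside 1.49% of all genes) and none that fell. Beside S100P these were S100A9 (1.03, from 8.11 and 8.15 to 9.19 and 9.13), S100A6 (0.67) and S100A14 (0.57), and the median was 0.16. The count was 1 without either control array or statin array 1, 2 without statin array 2 and 3 without either nLDL array. Among 15 keratins, KRT19, a marker of bile duct and progenitor cells, fell by 0.85 (SE 0.08) from 5.89 and 5.88 to 5.01 and 5.06. Its other probe set differed by 0.25 and did not pass. No other keratin passed, beside 2.26% of all genes that fell. Of 16 tubulins, TUBA1A rose by 0.78, TUBB6 (-0.52) and TUBD1 (-0.49) fell, and the median was -0.21. Over all genes 1.49% rose and 2.26% fell. All 3 tubulin calls were lost in each fit without an array.

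Genes that insulin represses through FOXO factors had 6 of 19 members that rose and none that fell, 31.6% beside 1.49% of all genes, with a median of 0.17. After IGFBP1 came TXNIP, which restrains glucose uptake, from 7.98 and 7.98 to 9.27 and 9.18, a rise of 1.25 (SE 0.09). PIK3IP1, an inhibitor of PI3 kinase, rose by 0.87, PCK1, the gluconeogenic enzyme, by 0.83, the insulin receptor substrate IRS2 by 0.58 and ERBB3 by 0.38. PCK1 was near background, at 3.36 and 3.75 with vehicle and 4.32 and 4.45 with statin, and G6PC1, the other key enzyme of glucose output, differed by 0.25 without passing. The count was 0 without either control array, 1 without statin array 1, 2 without statin array 2 and 3 without either nLDL array.

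Stress programmes did not move as blocks. Of 26 genes of the ATF4 and amino acid response, 3 rose and 2 fell, beside 1.49% and 2.26% of all genes. GDF15, DDIT4 (0.66), an inhibitor of mTORC1, and PCK2 (0.45) rose. The amino acid transporter SLC7A5 fell by 1.33 (SE 0.10), from 9.56 and 9.58 to 8.23 and 8.24, and asparagine synthetase (ASNS) fell by 0.66. Without a control array 1 of these rises and 0 of these falls remained, and without a statin array 1 of each. Of 23 NRF2 targets, 4 rose (17.4%, beside 1.49% of all genes), none fell, and the median was 0.01. Those that rose were NQO1 (1.24), which reduces quinones, and the aldo-keto reductases AKR1B10 (1.06), AKR1C2 (0.56) and AKR1C1 (0.48). NQO1 lay at 8.35 and 8.39 on the control arrays and at 9.62 and 9.59 on the statin arrays. HMOX1 and GCLM, also targets of NRF2, differed by -0.41 and -0.25 and did not pass. AKR1C1 and AKR1C2 are near-identical genes, so their values may share signal. The NRF2 count was 1 without any control or statin array and 2 without either nLDL array. GPX2, a selenium-dependent peroxidase on no list, rose by 1.14.

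Of 15 heat shock genes, HSPB8 (-0.82), HSPA4L (-0.77) and HSPH1 (-0.66) fell, while the abundant HSPA8 and HSP90AA1 differed by -0.11 and -0.13. These 3 calls were lost without either control array or statin array 1, and 1 of them held without statin array 2. Among 24 hypoxia-inducible genes, ADM (0.72), a vasodilator peptide, and NDRG1 (0.54) rose and the glycolytic regulator PFKFB3 fell by 0.88 (SE 0.10). Of 13 glucocorticoid-inducible genes, TSC22D3 rose by 1.03 (SE 0.08), from 8.31 and 8.30 to 9.31 and 9.36, and the kinase SGK1 fell by 0.91 (SE 0.07), from 11.49 and 11.51 to 10.57 and 10.61. In both genes the groups stood apart, in opposite directions. Of 17 circadian genes, PER2 fell by 0.45. Calls on these lists stand beside 1.49% of all genes that rose and 2.26% that fell, and PER2 alone is no result about circadian genes.

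Of 19 cholesterol synthesis genes, 4 rose (21.1%, beside 1.49% of all genes) and none fell. The list had the highest median of all lists (0.35, beside 0.02 over all genes), and 18 of 19 had a higher mean. TM7SF2, a sterol reductase, lay at 8.86 and 8.77 with vehicle and at 9.37 and 9.51 with statin. On the nLDL arrays the list had medians of -0.39 and -0.31 relative to the controls. The count of 4 was 0 without any control or statin array and 2 without either nLDL array. Sterol uptake and sensing had 3 genes that rose of 19, SOAT2 (0.75), which esterifies cholesterol, and the receptor LRP1 (0.52) among them, and MYLIP, which targets lipoprotein receptors for destruction, fell by 0.72. ACSS2, which makes acetyl-CoA from acetate, rose by 1.06 (SE 0.08) from 8.31 and 8.24 to 9.32 and 9.35, and lay at 7.85 and 7.86 with nLDL. The phosphatidate phosphatase LPIN1 (0.70) and the lipase PNPLA3 (0.49) also rose among 19 genes of fatty acid and triglyceride synthesis, where the median was 0.03. Counts on the uptake and fatty acid lists stand beside 1.49% of all genes that rose and 2.26% that fell.

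In fatty acid oxidation, the acyl-CoA dehydrogenase ACADL fell by 0.77 (SE 0.13). Of 22 genes of the xenobiotic response, the receptor NR1I2 (0.89) and the transporter ABCC3 (0.45) rose, CYP3A4, the classic target of that receptor, differed by 0.06, and the median was 0.19. Among 17 liver transcription factors, the corepressor NR0B2 rose by 0.75 (8.38 and 8.38 to 9.11 and 9.15) and FOXA1 fell by 0.54. Of 35 secreted plasma proteins, the coagulation proteins F5 (0.60) and SERPINC1 (0.59) rose and KNG1 fell by 0.43. The few calls on these lists stand beside 1.49% of all genes that rose and 2.26% that fell.

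Several large cell systems had no member that passed at its brightest probe set. None of 20 cytosolic tRNA synthetases, 20 genes of the ER chaperone and unfolded protein response, 24 ribosome biogenesis genes, 26 proteasome subunits, 32 complex I genes, 25 lysosomal genes or 9 genes of the metallothionein list was called by limma. Their medians were -0.15, -0.15, -0.17, -0.07, 0.06, 0.03 and 0.04, against 0.02 over all genes. Means lay below the controls for 18, 15, 22 and 22 members of the first 4 lists. They lay above the controls for 22 complex I genes, 15 lysosomal genes and 5 genes of the metallothionein list. In the first of these lists FARSB (-0.32) and YARS1 (-0.27) were farthest from the controls, in the second PDIA4 (-0.34) and EDEM1 (-0.22), and in the third PNO1 (-0.32) and LYAR (-0.28). The 3 probe sets of FARSB ran from -0.58 to -0.32, and 1 that was not the brightest passed as a fall. Likewise PSMD12 (-0.27) and PSMD3 (-0.24) led the proteasome subunits, and NDUFA7 (0.18) and NDUFB10 (0.13) complex I. MTF1 (0.18) and SLC30A1 (0.17) were the farthest on the metallothionein list, which holds this factor and this zinc exporter beside the metallothioneins. Cathepsin Z (CTSZ) lay at 9.47 and 9.30 with vehicle and at 8.31 and 9.73 with statin, so the statin arrays stood on both sides of the controls, and CTSD differed by 0.37 (SE 0.11).

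One gene, TSC22D1, had probe sets that passed in opposite directions. One rose by 0.45, from 11.04 and 11.06 to 11.43 and 11.57, and another fell by 0.66, from 7.86 and 7.86 to 7.26 and 7.15, and 2 more did not pass. Which transcripts they read was not determined here.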

How the data were processed

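Total RNA of Huh7 cells had been hybridised by the authors to whole-genome Affymetrix arrays (U133 Plus 2.0) and normalised in GeneSpring GX 11.5. They deposited log2 signals for each probe set from robust multi-array averaging, without detection calls or counting depth. A second deposited table named the probe sets, and its 6 value columns, whose headers match no sample, were not used. After 62 control probe sets were set aside, 54613 were tested. A single symbol was given for 43383 of them, several for 1663 and none for 9567. RefSeq's gene table (GRCh38.p14) updated the symbols of 42702, and 681 were not found there.

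Using limma 3.58.1 (R 4.3.3), 3 group means were fitted over the 6 arrays (two-sided, 3 residual and 4.08 prior degrees of freedom), and p-values were adjusted by Benjamini-Hochberg over all probe sets, with a threshold of 0.05. The code was tested on simulated arrays. With 2 arrays a group an exact permutation p cannot be under 0.333, so it is not given. A gene is read at its brightest probe set, by the mean of the 6 arrays. Named genes are the 20 largest rises and falls that pass and whose statin arrays both lie on the same side of both control arrays. Up to 6 passing members of each list, and the 2 largest differences of a list with none, were named as well. Other members named beside them, and genes on no list, were chosen after their values were seen. The lists and members were chosen with earlier results of these data known. Promoters are the 200 bases before the start site in a RefSeq table. Protein sequences were not used here, and a few genes and lists taken by the rule are left unreported. Counts of calls and the named genes were recomputed with the replicate number as a block, with quantile normalization or median centring, without the dimmest 40% of probe sets or any one array, with a trended robust prior, on control and statin arrays alone, by the methods' t-test, at a fold of 1.5 or more, and with probe sets averaged within genes. List medians were recomputed under all of these but the methods' t-test and the minimum fold, and promoter matches under none.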

Additional observations from a re-analysis of the deposited data

Results flagged for a closer look

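The control probe sets for ACTB, which stood outside the comparison of genes, were lower on the statin arrays, and more so towards the 5′ end, so the gap between their ends was wider there. The 3′ probe set lay above the 5′ one by a mean of 2.02 on the statin arrays, beside 1.63 on the control arrays and 1.58 on the nLDL arrays. Its part in the differences between genes was not tested. Groups of 2 arrays were too small for a search for single outlying arrays.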

How the results depend on the processing

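Of 171 named genes, CTSZ alone changed sign, between -1.07 without statin array 2 and 0.34 without statin array 1. Beside 522 higher and 907 lower probe sets, the counts were 1050 and 1695 without the dimmest 40%, 1787 and 3167 with a trended robust prior, 239 and 368 with control and statin arrays alone, 248 and 446 at a fold of at least 1.5, 2900 and 3291 by the methods' t-test at its thresholds and 0 and 0 by that test after Benjamini-Hochberg. Leaving out an array gave 9 to 239 higher and 33 to 368 lower. With the replicate number as a block they were 280 and 540. The labels do not say whether same-numbered arrays were paired. Their deviations from the group means correlated at 0.02 to 0.09, which shows little shared variation but cannot settle the pairing. Beside 60 higher and 133 lower list genes, the counts were 97 higher without the dimmest 40%, 140 and 279 with the trended prior, 140 and 242 by the methods' t-test, 0 and 0 after its adjustment, 72 lower with control and statin arrays alone, and 74 lower at a fold of 1.5. Leaving out an array gave 5 to 44 and 10 to 72. All other alternatives stayed within 1.5 times. Of 624 recomputed list medians, 153 moved by more than the spread between the statin arrays. Part of the 624 could not move. The replicate block, the trended prior, control and statin arrays alone and the loss of an nLDL array leave every statin difference unchanged. The dimmest probe sets have levels too near background to order.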

Other observations

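Some called genes on no list share a known place in the cell or in a tissue. They were chosen after their values were seen, so they are described without a test as a group. Called risers known from epithelium of the digestive tract were, beside MYO1A, ESPN (0.59), EPS8L3 (0.64) and CALML4 (0.48), all of the microvillus. Further ones were the membrane enzymes MEP1A (0.76), ANPEP (0.68) and LCT (0.84) and the transporters SLC51B (0.83), SLC6A19 (0.51) and SLC15A1 (0.48). The mucin MUC13 (0.83), the receptor GUCY2C (0.52), TFF1 (0.97), TM6SF2 (0.75) and ANXA13 (0.66) rose too. Genes of that kind that did not rise were not counted. SLC51B, the partner of SLC51A in bile acid export, lay at 9.87 and 9.82 with vehicle and at 10.65 and 10.69 with statin, and TFF1 went from 9.09 and 9.01 to 10.06 and 9.99.

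Both relatives of AJUBA fell with it, LIMD1 by 1.03 (SE 0.14) and WTIP by 1.02 (SE 0.17), as did WWC1 (-0.95) and WWC2 (-0.76), scaffolds of the kinases that inhibit YAP. WWC1 lay at 8.77 and 8.85 on the control arrays and at 7.87 and 7.85 on the statin arrays. CRIM1-DT, an RNA gene beside CRIM1, fell by 1.09 (SE 0.10). Matrix and signalling genes that fell included FSTL1 (-1.29), COL12A1 (-1.13), NID2 (-1.07), LOXL4 (-0.99), the Notch ligand JAG1 (-1.27) and the RNA-binding BICC1 (-1.27). Further proliferation genes off the lists fell as well, FOXM1, which drives mitotic genes, by 0.62, DTL by 0.74, MYB by 0.73, EZH2 by 0.58 and HELLS by 0.55.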
